A study of Mus musculus with 20 samples.

Results

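The interferon response genes are 37 genes listed by name, taken by their symbol in the array's annotation and read only from probe sets that the annotation gives to 1 gene. Of the 37, 35 had such a probe set and 2, Isg15 and Ifi44, had none, among 18193 genes named on the array. Total RNA of cardiac ventricle was hybridised to 20 Affymetrix MOE430 2.0 arrays. All animals were C57BL/6J males, an inbred strain, kept in a barrier facility, and the labels name no transgene or treatment. Those of the old group, 10 arrays, were 25 to 28 months of age, while the young animals, also 10 arrays, had reached 4 to 6 months. The comparison asks how expression in the heart differs with age. Each value is a GCRMA signal, in log2 units, where a difference of 1 is a 2-fold change and transcripts that are not detected lie near 2 to 4. A gene was tested when its probe set exceeded 4 in at least 10 arrays, and it was called when its limma p, adjusted with Benjamini-Hochberg over the 9275 genes tested, was under 0.05. In bulk tissue, more cells of a type and more RNA per cell cannot be told apart.

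Interferons are secreted signals of infection and tissue stress. Type I interferons act through a receptor on nearly every cell and activate a complex that holds STAT2 and IRF9 and binds the interferon-stimulated response element (ISRE) of genes such as the Ifit, Oas and Mx families. Interferon-gamma, made by T and natural killer cells, acts through the gamma-activated site (GAS) and induces the guanylate-binding proteins (Gbp) and the immunity-related GTPases (Irgm1, Irgm2, Igtp and Iigp1). The targets overlap, since many Gbp and Irgm genes also answer to type I interferon. In heart tissue these genes are expressed by muscle cells, endothelium, fibroblasts and leukocytes.

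Promoter letters of 7 members are shown with their matches to the ISRE and GAS patterns. RefSeq windows (build GRCm38.p6) were matched by symbol for 26 of the 37 members, and the 250 bases before each start were searched on both strands for the ISRE core, a pair of GAAA blocks with any 2 bases (NN) between them, and for the GAS TTCNNNGAA, which reads the same on both strands. Ifit1, Ifit3 and Rsad2 are shown as targets of type I interferon, Gbp2, Igtp and Irgm2 for the interferon-gamma class, and Isg20 because it had the largest difference with age. Capitals mark the motif matches, the ISRE core appearing as a pair of TTTC blocks where it lies on the other strand, and each stretch runs 5′ to 3′ on the strand of the gene.
Ifit1 (chr19:34640773-34640825, + strand): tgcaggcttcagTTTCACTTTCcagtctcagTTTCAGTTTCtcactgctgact
Ifit3 (chr19:34583361-34583428, + strand): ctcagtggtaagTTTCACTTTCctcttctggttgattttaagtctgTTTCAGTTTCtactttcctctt
Rsad2 (chr12:26456551-26456584, - strand): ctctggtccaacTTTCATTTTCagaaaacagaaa
Gbp2 (chr3:142620592-142620625, + strand): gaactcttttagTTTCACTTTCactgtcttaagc
Igtp (chr11:58199499-58199543, + strand): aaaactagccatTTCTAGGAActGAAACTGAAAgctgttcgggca
Irgm2 (chr11:58214890-58214934, + strand): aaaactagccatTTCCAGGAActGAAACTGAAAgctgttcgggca
Isg20 (chr7:78913339-78913371, + strand): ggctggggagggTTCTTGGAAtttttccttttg

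Ifit1 and Ifit3 each held a pair of ISRE cores, while Igtp and Irgm2 held a GAS beside an ISRE core in stretches of 45 bases that differed at 1 position. An ISRE core was present in 13 of the 26 members with a window, against 2.98% of all 32851 promoter windows and 3.46% of all genes. It was present in 6 of the 6 Gbp and immunity-related GTPase genes with a window and in 3 of 5 in the Ifit, Oas and Mx class. A GAS was found in 8 of the 26 members, against 7.02% of all windows and 8.13% of all genes. An ISRE core overlapped a GAS in Bst2 alone, and several genes, such as Oas1a and Irgm1, held ISRE cores that overlapped each other. A match is a description of letters and no evidence of binding.

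Some libraries stood apart. The 6 markers listed for ventricular muscle averaged 15.08 to 15.31 in old and 15.18 to 15.35 in young arrays, so heart muscle was present in both groups. Whether this list tells ventricular from atrial muscle was not tested. Atrial muscle markers averaged 5.05 to 13.66 in old arrays and 4.85 to 5.68 in young ones, and the atrial myosin gene Myl7 exceeded 10 in 7 old arrays. Macrophage markers were called higher in old for 7 of 9 tested, where 11.2% of all genes tested were called higher and 7.49% lower. Their list mean was 7.54 to 8.51 in old and 7.01 to 7.62 in young. T and natural killer cell markers stayed at or under 4 in all arrays for 7 of 12 genes (Cd3e, Nkg7, Klrk1, Ncr1, Gzmb, Prf1 and Ifng), with a list mean of 2.6 to 2.67 in young and 2.59 to 4.36 in old, the highest in old replicate 8. Of the plasmacytoid dendritic cell markers, Siglech and Pacsin1 lay at or under 4 throughout, Ccr9 and Klk1 averaged 3.81 and 4.07 in old and 4.01 and 4.39 in young, and Cox6a2, also a gene of heart muscle, averaged 13.74 and 13.87. Limma called 0 of the 2 tested, Klk1 and Cox6a2 (Klk1 was lower at an unadjusted p under 0.05), and the list mean of 5.0 to 5.34 in old and 5.24 to 5.51 in young holds Cox6a2. Endothelial markers had 0 of 6 called (7.32 to 8.49 in old, 7.67 to 8.28 in young), beside 11.2% of all genes called higher and 7.49% lower. Neutrophil markers had 2 of 2 tested called higher, S100a8 and S100a9, beside the same shares (list mean 3.93 to 5.24 in old, 2.75 to 4.84 in young). Ngp, Camp and Ltf lay at or under 4 in all arrays. The part of these cell types in the members' differences below was not tested, apart from the 2 settings for atrial transcripts.

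In the old hearts 7 members were called higher and 1 was called lower than in young hearts. The 7 were Isg20, Ifi27l2a, Oasl2, Ifi27, Lgals3bp, Ifit3 and Ifih1. The gene called lower was Ddx58, whose probe sets disagreed in direction. These are 7 of 28 members tested, where 11.2% of all genes tested were called higher, and 1 of 28, where 7.49% were called lower. After quantile normalization 6 members were called higher, against 8.72% of all genes, and 1 lower, against 11.4%. The median difference of the 28 members was 0.12 and that of all genes tested 0.01 (log2, old minus young), and 20 of the 28 estimates were above 0; after quantile normalization these were 0.04, -0.06 and 16. Of the 28 tested members 27 exceeded 4 in at least 19 arrays and the remaining one, Stat2, in 12. A value above 4 does not by itself show that a transcript was detected. In 0 of the 35 members with a probe set did the groups lie apart, against 1.36% of all genes tested with every old array above every young one and 0.42% with every old array below.

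**Figure D1:**
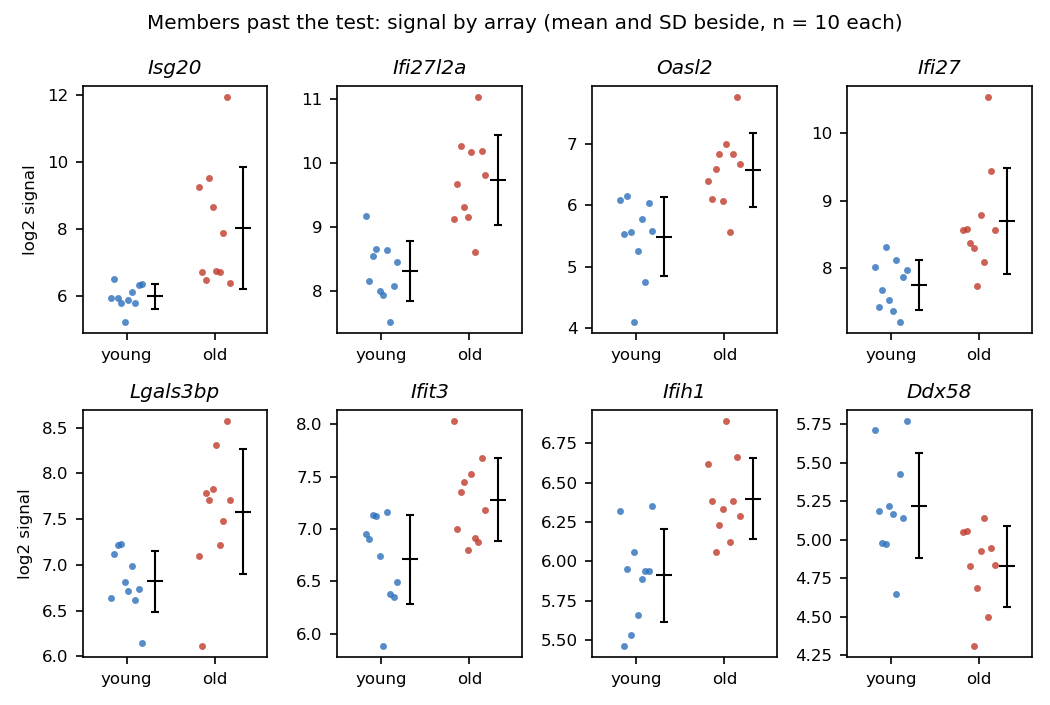
Log2 signal of the 8 called members in each array, young in blue and old in red, with the group mean and SD (n = 10 each) beside the points. Every panel shows overlap between the groups, and in the Isg20 panel the old points spread from 6.39 to 11.94 while the young ones lie between 5.21 and 6.5.

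**Figure D2:**
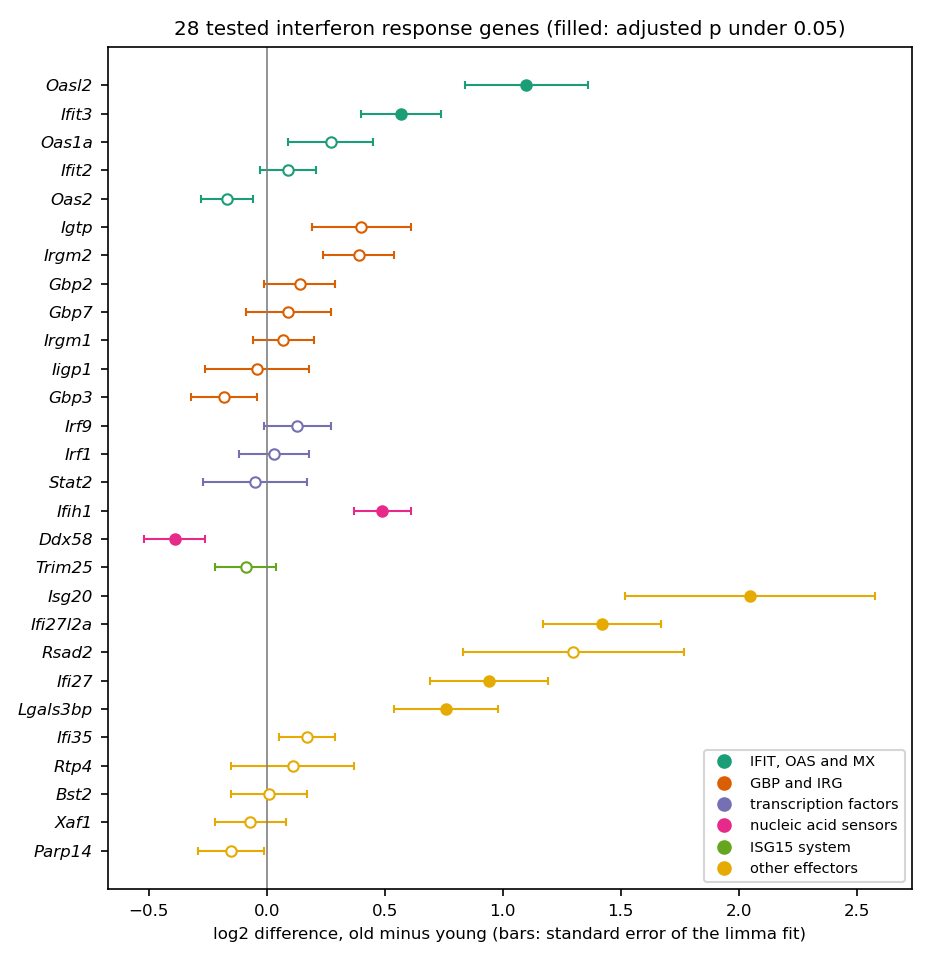
Log2 difference, old minus young, of the 28 tested members with the standard error of the limma fit, coloured by role and filled where the adjusted p was under 0.05. The 7 Gbp and immunity-related GTPase genes lie between -0.18 and 0.4 and have no filled point, while the other effectors reach 2.05.

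None of the 8 calls was kept under either of the settings for atrial transcripts. With an index of atrial transcripts as a covariate, 0 of the 28 members were called by limma, where 2.81% of all genes were called higher and 0.927% lower, and 4 were higher and 0 lower at an unadjusted p under 0.05. Without the 7 old arrays with Myl7 above 10, which leaves 3 old arrays (Myl7 at 2.36, 8.27 and 6.58) and 10 young (2.38 to 2.44), limma called 0 as well, against 2.25% higher and 0.679% lower, with 6 higher and 0 lower at an unadjusted p under 0.05. The index ran from 0.00025 to 1.0 in old arrays and from 0.000245 to 0.000277 in young ones, so it was high in old arrays only. Whether calls were lost through a wider standard error or fewer arrays was not tested. Both settings were chosen after seeing the data. Ifit3 had a difference of 0.53 under the former and 0.6 under the latter, and Ifih1 of 0.38 and 0.46, beside 0.57 and 0.49 over all arrays. Isg20 was at 1.59 and 1.58, with adjusted p of 0.219 and 0.0519. Lgals3bp was at 0.21 and -0.01. Oasl2 moved from 1.1 over all arrays to 0.61 and 0.54. Ifi27l2a moved from 1.42 to 1.07 and 0.83, and Ifi27 from 0.94 to 0.66 in both. Of the 7 members called higher, Lgals3bp alone had an estimate below 0 in either setting. Ddx58 went from -0.39 to -0.25 and -0.14.

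**Figure D3:**
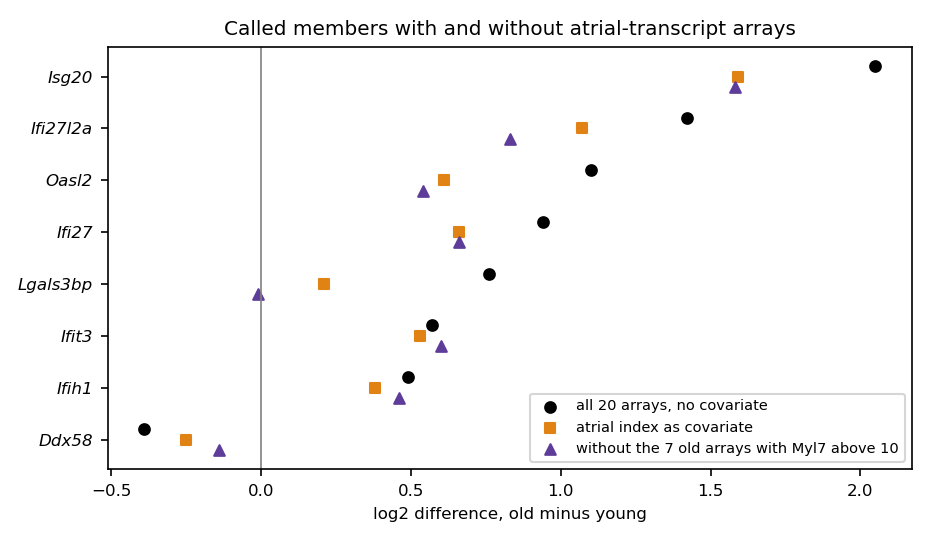
Log2 difference, old minus young, of the 8 called members over all 20 arrays, with the atrial index as a covariate, and with the 7 old arrays of high Myl7 left out. Ifit3 and Ifih1 keep nearly the same position under all 3, whereas Lgals3bp moves from 0.76 to -0.01.

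The type I effector class of Ifit, Oas and Mx genes rose in part. Of its 8 genes 5 were tested, of which 2 rose and 0 fell, with a median difference of 0.27, where 11.2% of all genes tested rose and 7.49% fell. Both calls were lost under each atrial setting. Oasl2, a relative of the oligoadenylate synthetases, ran from 5.56 through a median of 6.63 to 7.77 in old arrays and from 4.09 through 5.57 to 6.15 in young ones. Of the old arrays, 7 lay above all young ones, and Oasl2 rose by 1.1 ± 0.26 (log2, SE, n = 10 each; limma adjusted p = 0.00462), a 2.15-fold difference. Ifit3 ran from 6.8 (median 7.26) to 8.03 in old and from 5.88 (median 6.82) to 7.16 in young. Its groups overlapped in the lower old arrays, with 6 old arrays above all young ones, and the difference was 0.57 ± 0.17 (SE, n = 10 each; limma adjusted p = 0.0253). After quantile normalization the call of Ifit3 was lost, which left 1 gene of the class.

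The other members of the class did not pass the test or were too dim for it. Ifit2, a neighbour of Ifit3 in sequence and function, averaged 6.51 ± 0.33 among old and 6.42 ± 0.21 among young arrays (SD, n = 10 per age; limma adjusted p = 0.658). Oas1a, which makes the oligoadenylates that switch on RNase L, had a median of 4.39 in old and 4.34 in young, and 1 old array reached 6.05 (limma adjusted p = 0.314). Oas2 was at -0.17 (limma adjusted p = 0.316), with 6 old arrays below all young ones. Its young arrays were nearly flat, from 5.27 (median 5.28) to 5.68 with an SD of 0.12. Whether that level lies above the floor of its probe set was not tested. Ifit1 exceeded 4 in 8 arrays and was not tested. Its old arrays ran from 3.38 (median 3.99) to 6.25 and its young ones from 3.13 (median 3.74) to 4.25. The groups overlapped between 3.38 and 4.25, and 3 old arrays stood above all young ones. Mx1 and Mx2, dynamin-like GTPases, exceeded 4 in 0 arrays, with values between 2.54 and 3.07.

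The interferon-gamma class showed no call. All 7 genes were tested, and limma called 0 of them at an adjusted p under 0.05; 1, Irgm2, had an unadjusted p under 0.05 as higher, as did 17.6% of all genes tested, and 0 had one as lower, as did 14.1%. The median difference was 0.09, beside 0.27 for the Ifit, Oas and Mx class and 0.01 for all genes. That order turned with the atrial index (0.09 beside 0.05) and without the 7 old arrays (0.28 beside 0.17). Without old replicate 9 the medians were 0.09 and 0.11. The difference between the classes was not tested. Averaged over the 7 genes, old arrays read 7.37 ± 0.34 and young arrays 7.25 ± 0.28 (SD, n = 10 each). The same average over the 5 tested genes of the Ifit, Oas and Mx class was 6.03 ± 0.36 for old and 5.66 ± 0.22 for young. Gbp2, a guanylate-binding protein that acts at vacuoles of intracellular microbes, ran from 7.25 (median 8.05) to 8.41 in old and from 7.22 (median 7.96) to 8.25 in young. The groups overlapped nearly throughout (difference 0.14 ± 0.15, SE, n = 10 each; limma adjusted p = 0.556). That probe set is of a type that can bind several related transcripts, and the other Gbp2 probe set was at 0.25.

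Gbp3 was at -0.18 (limma adjusted p = 0.401) and Gbp7 at 0.09 (0.762), with old arrays on both sides of the young median in each. The immunity-related GTPases Irgm1, Irgm2 and Igtp guard membranes of the cell's own organelles, and Iigp1 disrupts the vacuoles of parasites. Irgm2 ran from 6.11 (median 6.81) to 7.26 in old and from 5.65 (median 6.39) to 6.79 in young. Although 6 old arrays lay above all young ones, its difference of 0.39 ± 0.15 (SE, n = 10 each) did not pass (limma adjusted p = 0.079), and it passed only when old replicate 5 was left out among the 20 fits without 1 array. Igtp was between 7.15 (median 7.59) and 8.64 in old and between 6.65 (median 7.25) and 8.2 in young, at 0.4 ± 0.21 (SE, n = 10 each; limma adjusted p = 0.187). The Igtp ranges overlapped between 7.15 and 8.2, with 1 old array above all young ones and several young arrays below all old ones. Irgm1 was at 0.07 (limma adjusted p = 0.754) and Iigp1 at -0.04 (0.919). Among the promoters, all 6 genes of this class with a window held an ISRE core, while of the 5 members called higher that had a window 1 did, Ifit3; Oasl2, Ifih1, Isg20 and Lgals3bp had none in these 250 bases.

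**Figure D4:**
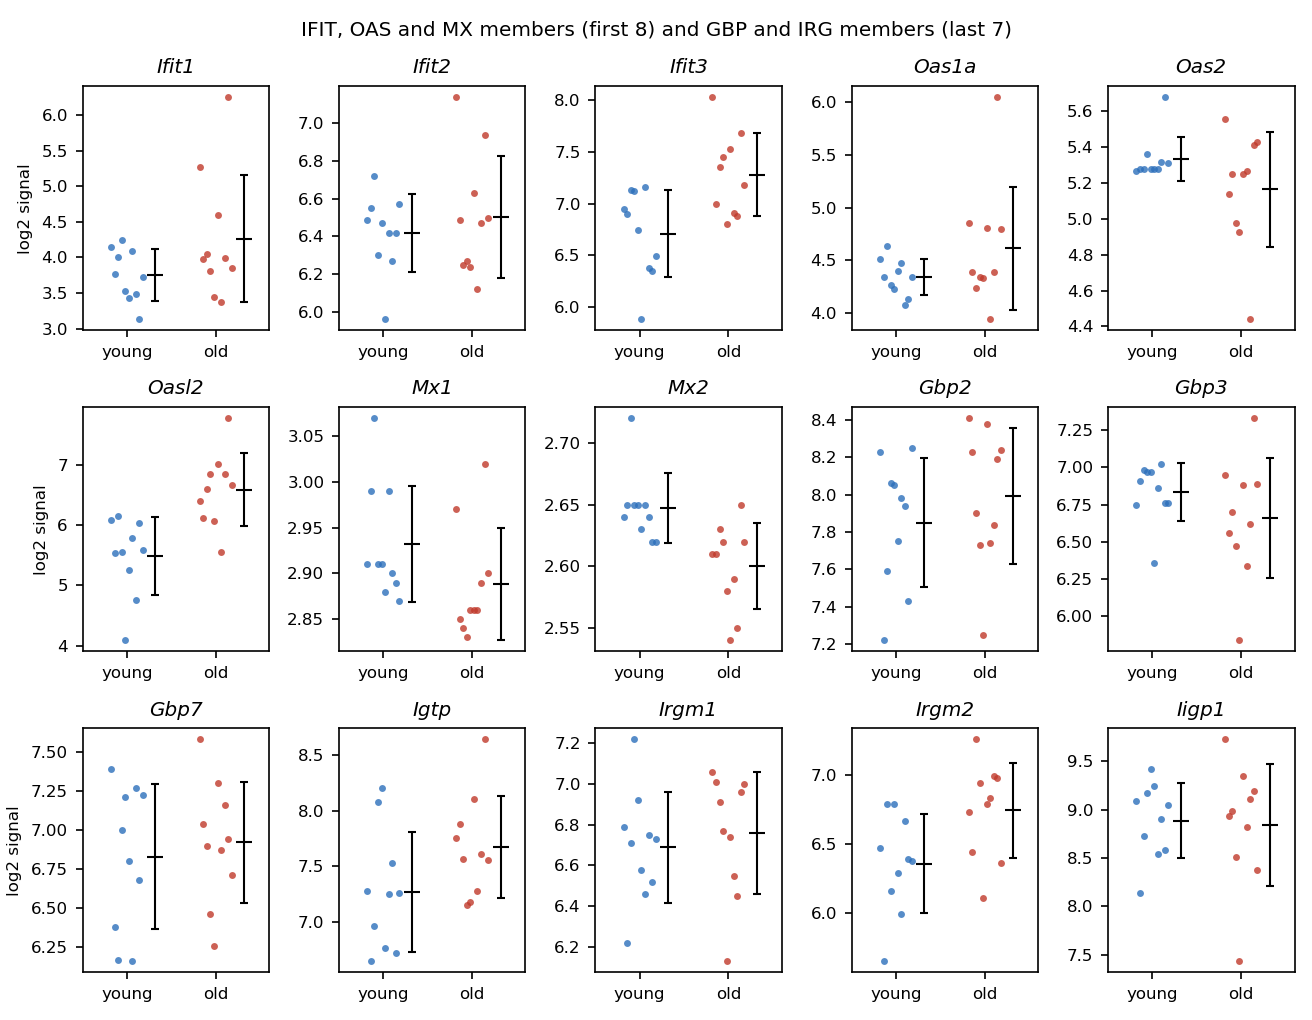
Log2 signal by array of the 8 Ifit, Oas and Mx genes and the 7 Gbp and immunity-related GTPase genes, young in blue and old in red, with group mean and SD (n = 10 each). Oasl2 and Ifit3 are shifted upward in old arrays, Mx1 and Mx2 stay between 2.54 and 3.07, and the groups overlap in every panel. Irgm2 has 6 old arrays above all young ones, as does Ifit3.

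The transcription factors of the response were not called. Of 4 genes 3 were tested. Irf1, the main factor induced by interferon-gamma, averaged 7.22 ± 0.3 among old and 7.19 ± 0.37 among young arrays (SD, n = 10 per age; limma adjusted p = 0.91). Irf9 was at 0.13 (limma adjusted p = 0.563) and Stat2 at -0.05 (0.906), which belong to the type I complex. None of the 3 had an unadjusted p under 0.05 in limma. Irf7, which amplifies type I interferon, exceeded 4 in 1 array, old replicate 9 at 5.07. The other old arrays of Irf7 reached 3.6 and the young arrays lay between 2.7 and 3.04, and 7 old arrays were above all young ones; without a filter its adjusted p was 0.0549.

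Of the sensors of foreign nucleic acid, Ifih1 was called higher, and Ddx58 was called lower on its brightest probe set. Ifih1 encodes MDA5, a detector of long double-stranded RNA. It ran from 6.06 (median 6.35) to 6.89 in old arrays and from 5.46 (median 5.94) to 6.35 in young ones. Of the 10 old arrays 5 lay above all young ones, and Ifih1 rose by 0.49 ± 0.12 (SE, n = 10 each; limma adjusted p = 0.00839). Ddx58 encodes RIG-I, a detector of RNA ends. Its brightest probe set ran from 4.31 (median 4.88) to 5.14 in old and from 4.65 (median 5.18) to 5.77 in young, close to the limit of detection, and it fell by 0.39 ± 0.13 on the log2 scale (SE, n = 10 each; limma adjusted p = 0.0433). A second Ddx58 probe set was at 0.12 and the remaining one lay at the floor, so the probe sets disagreed in direction, and the call was kept in 7 of 20 fits that each dropped a single array, where 5.8% to 8.38% of all genes were called lower and 9.2% to 11.8% higher. With a filter at 6 it was not tested, since none of its arrays reached that level (all genes 10.8% higher, 8.85% lower). The call was lost with the mean of passing probe sets (10.8% and 7.17%) and after median centring (12.3% and 5.66%), while the 7 calls of higher members were kept under these 3 settings. Dhx58, a regulator of both sensors, lay between 2.87 and 3.1. Zbp1, a sensor of left-handed nucleic acid, exceeded 4 in 3 arrays, ran from 3.23 (median 3.49) to 4.63 in old and from 2.8 (median 3.33) to 3.37 in young, and was not tested.

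The ubiquitin-like ISG15 system was seen through 2 of its genes. Usp18, which removes ISG15 from proteins and restrains the type I receptor, exceeded 4 in 9 arrays and so missed the filter by 1. It ran from 3.5 (median 4.36) to 5.21 in old and from 3.09 (median 3.74) to 4.25 in young. The old group lay higher, with 6 arrays above all young ones, and without a filter Usp18 was called higher at 0.7 (limma adjusted p = 0.0243), in a fit where 7.15% of genes were called higher and 16.7% lower. Trim25, a ubiquitin ligase that acts with RIG-I, was at -0.09 (limma adjusted p = 0.666).

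The largest differences were among the other effectors, of which 10 of 11 were tested and 4 rose, beside 11.2% of all genes; 0 of the 4 were called under either atrial setting. Isg20, an exonuclease that degrades RNA, ran from 6.39 (median 7.32) to 11.94 in old and from 5.21 (median 5.94) to 6.5 in young. Of the old arrays 8 lay above all young ones, and Isg20 rose by 2.05 ± 0.53 (SE, n = 10 each; limma adjusted p = 0.00906), a 4.14-fold difference with an SD of 1.82 among old and 0.37 among young arrays. Rsad2 encodes viperin, an enzyme that makes a chain-terminating nucleotide. It ran from 7.85 (median 8.56) to 12.98 in old and from 7.68 (median 7.98) to 8.32 in young, at 1.3 ± 0.47 (SE, n = 10 each; limma adjusted p = 0.0587). The test was not passed, and the other Rsad2 probe sets were at 1.0 and 1.19. It was called in 4 of the 20 fits without 1 array, and its adjusted p was 0.447 under the index setting and 0.123 when the 7 old arrays were dropped.

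Ifi27l2a and Ifi27 encode small membrane proteins strongly induced by interferon. Ifi27l2a ran from 8.61 (median 9.75) to 11.03 in old and from 7.51 (median 8.3) to 9.17 in young, with 7 old arrays above all young ones. It rose by 1.42 ± 0.25 (SE, n = 10 each; limma adjusted p = 0.000365), the smallest p among the members. Ifi27 ran from 7.74 (median 8.57) to 10.52 in old and from 7.21 (median 7.78) to 8.32 in young, and rose by 0.94 ± 0.25 (SE, n = 10 each; limma adjusted p = 0.0109). Both were highest in old replicate 8, the array that also read 8.38 for the T cell gene Cd3d, where the other arrays reached 3.2. Without that array Ifi27 was at 0.74 and Ifi27l2a at 1.28, and both were still called. Lgals3bp, a secreted glycoprotein that binds galectins, ran from 6.11 (median 7.71) to 8.57 in old and from 6.14 (median 6.78) to 7.23 in young, and rose by 0.76 ± 0.22 (SE, n = 10 each; limma adjusted p = 0.0199). The lowest old array of Lgals3bp lay below all young ones.

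The other 5 effectors tested lay between -0.15 and 0.17 with adjusted p of at least 0.343. They were Ifi35 (0.17), Rtp4 (0.11), a chaperone of receptors, Bst2 (0.01), the tetherin that holds budding virus at the membrane, Xaf1 (-0.07), an antagonist of an apoptosis inhibitor, and Parp14 (-0.15), an ADP-ribosyltransferase. For Bst2 the groups had medians of 6.53 in old and 6.59 in young. For Xaf1 the old arrays, 6.64 to 8.03, enclosed the young ones, 6.97 to 7.74.

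The signal was uneven among the old mice. Rsad2 was 12.98 in old replicate 9, 10.6 in replicate 1, 10.54 in replicate 4 and 9.27 in replicate 5, and at most 8.58 in the other 6. Isg20 was 11.94, 9.25, 9.53 and 8.66 in the same 4 arrays and at most 7.89 in the others. The same 4 arrays were thus the highest for both genes. Of the 4, replicate 1 had Myl7 at 2.36 and the others at 13.27 to 14.27, where the young arrays lay between 2.38 and 2.44. Old replicate 9 held the highest old value of 10 of the 28 tested members, and replicate 1 that of 8. Replicate 9 also held it in 6 of the 7 members too dim to be tested, which makes 16 of the 35 with a probe set. Old replicate 9 was also the highest for Ifit1 (6.25), Oasl2 (7.77), Usp18 (5.21) and Igtp (8.64). Old replicate 5, high for Isg20, had the lowest old value of 9 of the 28 tested members. The young arrays did not show such a range for Rsad2 and Isg20. Without old replicate 9 all 8 calls were kept, with Isg20 at 1.62 and Oasl2 at 0.97.

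**Figure D5:**
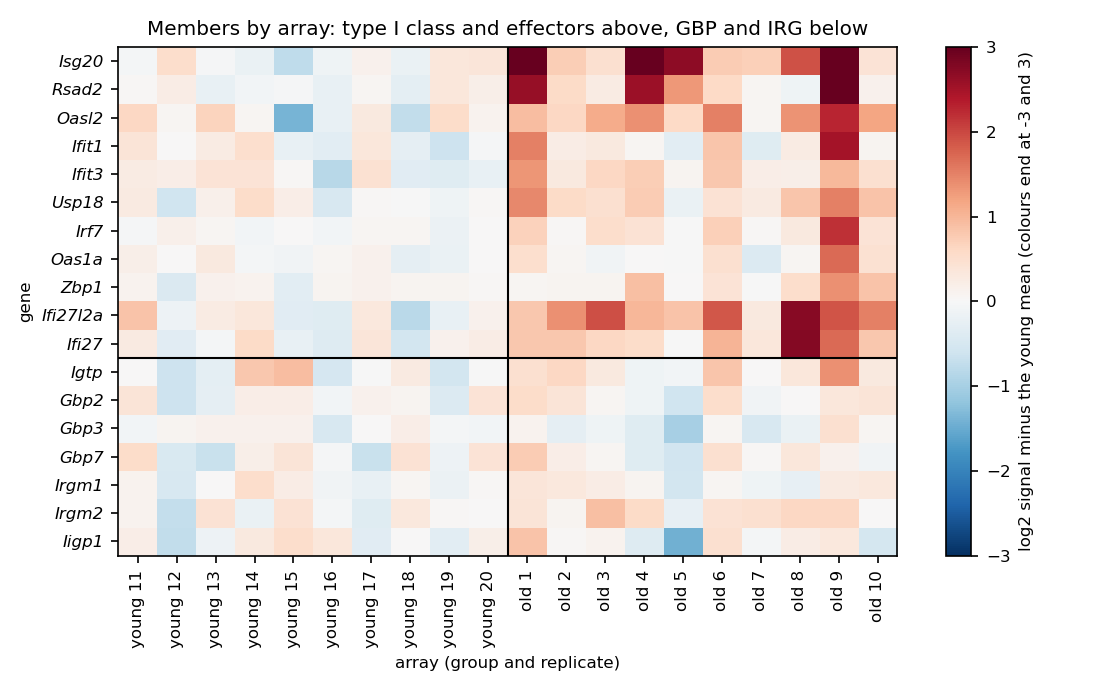
Log2 signal minus the young mean of 18 members in each of the 20 arrays, in colours that end at -3 and 3, with a vertical line between young and old and a horizontal line above the Gbp and immunity-related GTPase genes. The members of the upper block were chosen after their values were seen. Old replicates 1, 4, 5 and 9 are dark for Isg20 and Rsad2, and old replicates 1, 6 and 9 each lie above the young mean in 18 of 18 rows.

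The arrays also fell into 5 sets of 4, each with 2 old and 2 young arrays, when their deviations from the group means were clustered. No batch is named in the labels, and the origin of the sets was not tested. In 5 of 5 sets, the old mean exceeded the young mean for all 7 members called higher. The same was true of Igtp, which was not called, and of Ifit1, Irf7 and Usp18, which were not tested. The 7 were called on these same arrays, so their direction within sets gives the calls no support. The difference within sets ran from 1.24 to 3.21 for Isg20, from 0.42 to 1.86 for Oasl2, from 0.29 to 0.85 for Ifit3 and from 0.6 to 2.02 for Ifi27l2a. For Ddx58 it ran from -0.68 to 0.08. With the sets as a block all 8 calls were kept and Rsad2 was added (limma adjusted p = 0.0452), in a fit that called 19.4% of all genes higher and 16.7% lower. The sets were made from the residuals of these values, so the block lowers p-values by its construction and gives the calls no support.

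The genes around the response were taken from 5 further lists with 89 genes, of which 46 were tested, 12 rose and 3 fell, with a median difference of 0.17, where 11.2% of all genes rose and 7.49% fell. With the atrial index 3 were called higher and 2 lower, against 2.81% and 0.927% of all genes, and without the 7 old arrays 4 and 1, against 2.25% and 0.679%. The interferon genes themselves were not above 4. All 5 ligand genes with a probe set (Ifnb1, Ifna1, Ifna2, Ifna4 and Ifng) lay between 2.07 and 3.0, with 0 above 4 in any array. Of 5 receptor genes tested 0 rose and 1 fell, Il10rb, the shared chain of the interferon-lambda and interleukin-10 receptors. Il10rb averaged 10.54 ± 0.21 among old and 10.99 ± 0.13 among young arrays (SD, n = 10 per age; limma adjusted p = 0.00137), with 8 old arrays below all young ones. Il10rb was at -0.44 also with the atrial index, where it was still called (limma adjusted p = 0.0403), and without the 7 arrays, where it was not (0.0744).

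Among signal transducers and their inhibitors 2 of 12 rose (16.7%) and 1 fell (8.33%), shares near the 11.2% and 7.49% of all genes. Socs3, a feedback inhibitor of cytokine receptors, rose by 1.17 ± 0.27 (SE, n = 10 each; limma adjusted p = 0.00431), although only 1 old array lay above all young ones because the highest young array reached 8.82. Irf8, a factor of myeloid cells, rose by 0.53 (limma adjusted p = 0.00833) from young values of 3.73 to 4.03, near the floor. Tyk2, a kinase of the type I receptor, fell by 0.42 on the log2 scale (limma adjusted p = 0.0221). It lay between 3.77 and 4.45 in old and between 4.27 and 5.35 in young, also near the floor. Of 5 genes that detect nucleic acid or relay it, 2 rose, beside 11.2% of all genes. They were the endosomal RNA receptor gene Tlr3 (0.39) and Ifi204 (0.49), a DNA-binding protein, with limma adjusted p of 0.00453 and 0.0121. The young arrays of Ifi204 lay between 3.72 and 4.49, near the floor.

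Of 19 further type I targets tested, 6 rose and 0 fell, beside 11.2% and 7.49% of all genes tested. They were Samd9l (0.68), Ifitm3 (0.63), Ifi30 (0.6), Trim30a (0.6), Adar (0.55) and Trim21 (0.41), with adjusted p of at most 0.0314. Ifitm3 blocks the entry of virus, Adar edits double-stranded RNA and Trim21 binds antibodies inside the cell. Samd9l and Trim21 were called also with the atrial index (0.77 and 0.57; limma adjusted p = 0.0277 and 0.0205) and with the 7 old arrays removed (0.91 and 0.6; 0.0268 and 0.029). The list's median was 0.16. Trim30a kept its call in 13 of the 20 fits without 1 array. After quantile normalization the calls of Trim21 and Trim30a were lost (limma adjusted p = 0.0567 and 0.0612). In that fit 4 of the 19 were called higher and 0 lower, against 8.72% and 11.4% of all genes.

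Of 6 further interferon-gamma targets tested, 3 rose and 1 fell, beside 11.2% and 7.49% of all genes tested. Cxcl9, a chemokine that attracts T cells, lay between 3.02 (median 4.02) and 4.79 in old and between 5.24 (median 5.91) and 6.76 in young. Every old array was below every young one, and Cxcl9 fell by 1.97 ± 0.25 on the log2 scale (SE, n = 10 each; limma adjusted p = 1.02e-05). Icam1, an adhesion molecule of endothelium that other inflammatory signals also induce, lay between 6.1 and 7.79 in old and 4.54 and 5.58 in young, and rose by 1.73 ± 0.18 (SE, n = 10 each; limma adjusted p = 2.05e-06). Ifi47, an immunity-related GTPase, rose by 0.92 (limma adjusted p = 0.00756), and Irf8 is on this list too. Cxcl9 and Icam1 thus moved in opposite directions, and both were called under each atrial setting, Cxcl9 at -2.13 and -1.85 and Icam1 at 1.47 and 1.26.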

How the data were processed

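The deposited table holds 1 log2 value per probe set and array for 20 arrays. Per the submitters' processing notes the authors made these with GCRMA, a method that models background from probe sequence, normalizes across arrays and gives a summary per probe set. Neither its version nor the base of the logarithm was given in the sources used here; log2 was read from the values (0.98 to 16.01). Dim genes are compressed near the floor. Of 45101 probe sets, 64 were controls, 34945 had 1 gene in the platform annotation, 932 several and 9160 others were unnamed here; names were updated by gene identifier where a table of GRCm38.p6 held it (34741). Where several probe sets of a gene passed the filter, the one brightest on average across the 20 arrays stood for it. The series' design text calls both ages young, which was read as a slip. Old and young, read from the sample titles, were compared with limma 3.58.1 in R 4.3.3 (lmFit, eBayes, no covariate), a fit also tested on simulated data. No replicate number is shared between groups, and the labels give separate mice per group without tying each array to 1, so p-values measure the spread between these samples. The members, classes, lists and tests were chosen with earlier results of these data known. Every member is described; of the further lists the called genes are named, and the ligands were named after their values were seen. Other settings were quantile normalization, median centring, no filter, a filter at 6, the mean of passing probe sets and leaving out each array; the array sets (average linkage of 1 minus the correlation of residuals), the atrial index (mean of Myl7 and Sln, linear, relative to the highest array) and the fit without the 7 arrays were added after seeing the data.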

Additional observations from a re-analysis of the deposited data

Results flagged for a closer look

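A single array stood apart from the other 9 of its group in 6 of the 70 groups examined (35 members, old and young), where chance gives about 1 in 20. In old replicate 9, Oas1a read 6.05 with the next old array at 4.85, and Irf7 read 5.07 with the next at 3.6. Among young arrays, Irf9 read 6.76 in replicate 13 (next 6.24), Oas2 read 5.68 in replicate 19 (next 5.36), and Mx2 read 2.72 in replicate 13 (next 2.65), below the level of detection. Gbp3 read 6.36 in young replicate 16, under the next lowest at 6.75.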

How the results depend on the processing

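The number of members called higher was 7 and fell to 0 with the atrial index and to 0 without the 7 old arrays; the members called lower, 1 over all arrays, were 0 under both, 0 with the filter at 6, where Ddx58 was not tested, with the mean of passing probe sets and after median centring, and 2 without a filter, where the second was Mx2 at a level below detection. In fits without 1 array the members called lower ran from 0 to 1, the members called higher in the Gbp and immunity-related GTPase class from 0 to 1. In the Ifit, Oas and Mx class the genes called higher were 0 with the index, 0 without the 7 arrays and 1 after quantile normalization, and those called lower were 1 without a filter. Some estimates changed sign in some settings, and none was called there. After quantile normalization they were Ifit2 (-0.00086), Irgm1 (-0.02), Irf1 (-0.04) and Bst2 (-0.07). With the index they were Oas1a (-0.06), Iigp1 (0.08), Irf1 (-0.2), Irf9 (-0.02), Bst2 (-0.27) and Rtp4 (-0.03). Without the 7 arrays they were Iigp1 (0.27), Irf1 (-0.34), Irf9 (-0.1), Bst2 (-0.21), Xaf1 (0.06) and Lgals3bp (-0.01), the last a called gene over all arrays. In fits without 1 array, Iigp1 ran from -0.14 to 0.11, Irf1 from -0.05 to 0.1, Stat2 from -0.15 to 0.03, Bst2 from -0.08 to 0.1, Xaf1 from -0.15 to 0.00081 and Rtp4 from -0.0028 to 0.22. The cause of these changes was not tested. No paired analysis was possible because the groups share no replicate number. Signals near the floor of 4 limit what can be said of Ifit1, Irf7, Usp18 and Zbp1.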
